A study of Mus musculus with 54 samples.

Results

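The ADAMTS genes encode secreted zinc proteases that carry thrombospondin-type repeats and act on the matrix outside the cell. Many of them cleave the large proteoglycans versican and aggrecan, which bind hyaluronan and give tissues their swelling pressure, while others trim procollagen or work on the microfibrils that fibrillin forms. In the heart, ADAMTS proteases are known for clearing versican while the valves and the muscle wall mature, and in the brain they remodel the proteoglycan nets around neurons. Of the 19 ADAMTS genes among the 54232 genes of the count files, 10 are described here: Adamts1, Adamts2, Adamts4, Adamts5, Adamts8, Adamts9, Adamts10, Adamts12, Adamts15 and Adamts20. They were found by gene symbol and had been chosen by their measured levels in aged heart, kidney and brain and their response to Cmpd60 there. Their values in the aged mice are therefore given as a description with no test. Their tests come from a separate set of brains whose values the rule of choice did not use, although earlier results of those brains were known as well.

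Cmpd60 is an inhibitor of the histone deacetylases HDAC1 and HDAC2. Male BL6 mice of about 20 months received it daily by intraperitoneal injection at 22.5 mg/kg for 14 days. Control mice received the vehicle of DMSO, PEG400 and saline in the same way. Heart, kidney and brain mRNA was sequenced, and the labels and methods do not say which part of each organ was taken. There were 5 Cmpd60 and 6 vehicle hearts, 6 Cmpd60 and 5 vehicle kidneys, and 6 Cmpd60 and 6 vehicle brains. The dementia-model brains came from male APPSWE-1349 mice aged 6 to 7 months and from their littermates, given the same injections. Their age is that of the series description and the paper, while the growth protocol in their sample labels repeats the text of the 20-month mice. APPSWE-1349 mice carry a transgene for the APP695 form of human APP with the Swedish mutation, and the promoter of the transgene is not stated in the labels. This set held 5 Cmpd60 and 5 vehicle littermate brains, and 4 Cmpd60 and 6 vehicle transgenic brains. In the transgenic vehicle group 5 libraries were used, because vehicle-139, vehicle in all of its sample labels, is headed as treated in the study's supplementary table. Vehicle libraries of this set are named as in the labels, by treatment and number. The kidney labels conflict among themselves: the treatment field gives the opposite of the titles and source names. The titles were followed, as the headings of the study's table give the same groups. If the field were right, the sign of every kidney difference would turn, and the vehicle and Cmpd60 kidney levels would change places. Which heart, kidney and brain came from the same mouse is not recorded.

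Total counts ran from 23584609 to 43792168 in heart, from 25164965 to 39171083 in kidney, from 26402957 to 57430113 in aged brain and from 25052335 to 55871402 in the dementia set. Levels are CPM (counts scaled by sequencing depth) after TMM normalization. On total counts, without TMM, a level of 3 counts in the shallowest library came to 0.127 CPM in heart and 0.119 in kidney. In aged brain it came to 0.114 CPM and in the dementia set to 0.120. The tissue labels were checked against marker genes. In vehicle heart, kidney and brain a sum over 6 cardiomyocyte genes was 67518, 5.23 and 194 CPM, with Ryr2 at 189 of the brain value. A sum over 6 kidney epithelial genes was 5.21, 13326 and 1.31 CPM in the same order. A sum over 5 neuronal genes was 73.6, 1.10 and 4452 CPM, with Slc17a7 at 71.5 of the heart value. Each sum was highest in its own tissue.

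In the dementia set, 5 used libraries stood apart from the rest. Transgenic vehicle-140 and vehicle-146, transgenic Cmpd60 replicate 141, littermate Cmpd60 replicate 152 and littermate vehicle-155 had median correlations with the other libraries of 0.913, 0.934, 0.930, 0.910 and 0.911, and at most 16577 genes detected. The other used libraries of that set had median correlations of at least 0.951 and at least 18518 genes detected. Counts of members by edgeR, and most of the members described singly in these brains, are given with and without those 5 libraries.

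The first question is where each protease gene is expressed. Among vehicle groups, 5 of the 10 genes had their highest mean in heart, 2 in kidney and 3 in brain. Levels across tissues depend on the scaling: with CPM on total counts in place of TMM these numbers were 3, 4 and 3, since Adamts9 (18.1 CPM in heart, 22.9 in kidney) and Adamts12 (2.58 and 2.59) were then highest in kidney. On that scale the ratios of heart to brain were 0.659 to 0.675 times those given here, and those of heart to kidney 0.747 to 0.765 times. The kidney levels also depend on the conflicting labels. With the kidney labels exchanged, Adamts15 would be highest in heart after TMM, at 24.4 CPM against 20.3 in kidney. The proteoglycan-cleaving members were spread over all of these tissues, as the plot of levels in vehicle-treated aged mice shows. Adamts9 (ENSMUSG00000030022) encodes a versican-cleaving protease with a long tail of thrombospondin repeats. It stood at 22.8 ± 1.35 CPM (SD, n = 6) in heart, 21.6 ± 3.07 (n = 5) in kidney and 3.72 ± 0.687 (n = 6) in brain. Heart and kidney libraries overlapped, and the heart mean was 6.14 times the brain mean, or 4.05 times on total counts. Adamts1 (ENSMUSG00000022893), whose product cleaves versican and is known for restraining vessel growth, was at 91.6 ± 27.4 CPM in kidney, 63.7 ± 8.70 in heart and 14.8 ± 1.41 in brain. Its kidney and heart libraries overlapped as well.

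Adamts4 and Adamts5 encode the classical aggrecanases, best known from the loss of cartilage in arthritis, and they had opposite tissue preferences. Adamts4 (ENSMUSG00000006403), which oligodendrocytes express in the brain, was at 46 ± 3.93 CPM in brain, 10.7 times its kidney mean and 27.3 times its heart mean. That kidney mean was 4.31 CPM, and with the kidney labels exchanged it would be 7.01 CPM, with a smaller ratio. Adamts5 (ENSMUSG00000022894) was at 54.1 ± 6.73 CPM in heart, 1.80 times its kidney mean and 12.6 times its brain mean. For both genes the brain libraries did not overlap those of the other tissues. Adamts8 (ENSMUSG00000031994), another proteoglycan-cleaving member, was highest in heart at 6.34 ± 4.53 CPM, 2.51 times brain and 9.96 times kidney. Adamts15 (ENSMUSG00000033453), which acts on versican, had a kidney mean of 26.8 ± 6.34 CPM, 1.10 times that of heart with overlapping libraries, and 3.07 times that of brain. With the kidney labels exchanged that kidney mean would be 20.3 ± 5.71 CPM, below the 24.4 of heart. Adamts20 (ENSMUSG00000022449), the gene mutated in belted mice with a white band in the coat, was mainly a brain transcript. Its mean was 8.89 ± 1.88 CPM in brain, 14.4 times heart. In kidney its mean was 0.0783 CPM. On total counts that mean was 0.0824 CPM, under the level of 3 counts, and 6 aged libraries held 3 counts of it or fewer. With the kidney labels exchanged it would be 0.165 CPM on total counts, above that level.

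The remaining members have other substrates. Adamts2 (ENSMUSG00000036545) encodes the proteinase that removes the amino-terminal propeptide of fibrillar procollagens, and its loss causes fragile skin. Its heart mean of 33.9 ± 5.02 CPM was 2.27 times that of brain and 2.62 times that of kidney, and brain and kidney libraries overlapped. Adamts10 (ENSMUSG00000024299), whose product binds fibrillin microfibrils and is mutated in Weill-Marchesani syndrome, was at 33.1 ± 4.07 CPM in brain, 1.35 times heart and 1.84 times kidney, or 2.04 and 2.09 times on total counts. Adamts12 (ENSMUSG00000047497), whose product cleaves cartilage oligomeric matrix protein, was at 3.26 ± 0.496 CPM in heart, 1.33 times kidney with overlap and 6.74 times brain.

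**Figure D1:**
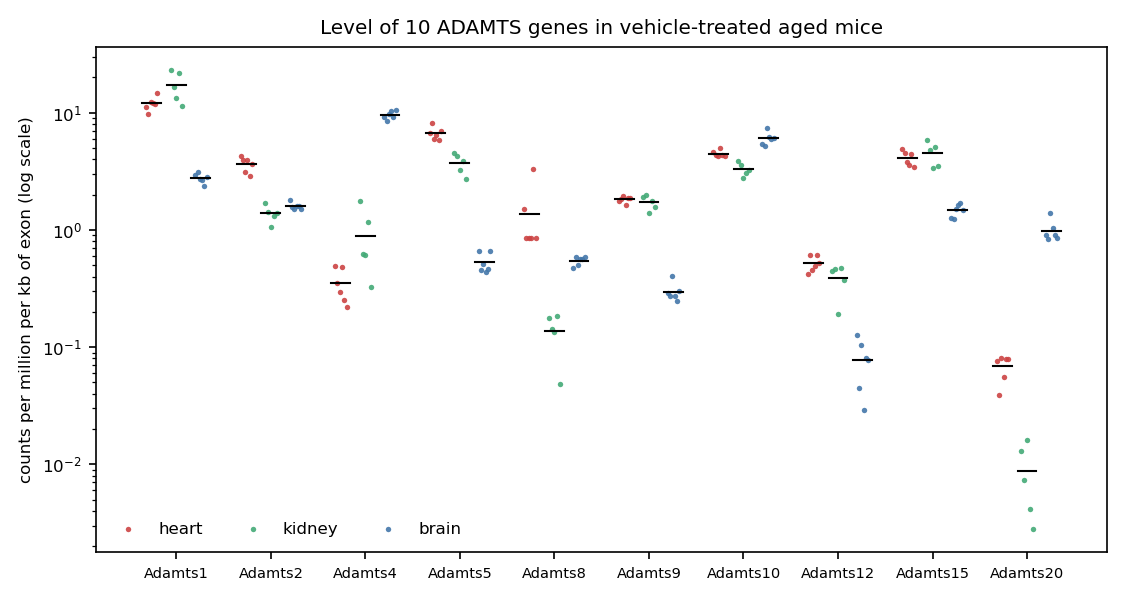
Level of the 10 ADAMTS genes in vehicle-treated aged mice, in CPM per kilobase of exon on a log scale. Each point is a library (6 hearts, 5 kidneys, 6 brains) and the bar is the group mean. Adamts1 is the highest in heart and kidney and Adamts4 the highest in brain.

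To compare genes with each other, CPM was divided by exon length in kilobases. On that scale Adamts1 led in vehicle heart at 12.0 and in vehicle kidney at 17.3, and Adamts4 led in vehicle brain at 9.57. The order in heart went on with Adamts5 at 6.69, Adamts10 at 4.49, Adamts15 at 4.11, Adamts2 at 3.63, Adamts9 at 1.82, Adamts8 at 1.37, Adamts12 at 0.521, Adamts4 at 0.350 and Adamts20 at 0.0685. Adamts9, the longest of these transcripts, was thus a mid-level member in heart. In that order the neighbours Adamts10 and Adamts15, Adamts15 and Adamts2, Adamts9 and Adamts8, and Adamts8 and Adamts12 were not apart by more than 1 SD. In kidney Adamts15 at 4.53, Adamts5 at 3.72, Adamts10 at 3.30, Adamts9 at 1.73, Adamts2 at 1.38, Adamts4 at 0.896, Adamts12 at 0.390, Adamts8 at 0.138 and Adamts20 at 0.00871 followed. Kidney neighbours within 1 SD were Adamts15 and Adamts5, Adamts5 and Adamts10, Adamts2 and Adamts4, and Adamts4 and Adamts12. With the kidney labels exchanged, Adamts5 at 3.74 would stand before Adamts15 at 3.42, and Adamts4 at 1.46 before Adamts2 at 1.41. Both of these gaps were within 1 SD. In brain the order after Adamts4 was Adamts10 at 6.06, Adamts1 at 2.78, Adamts2 at 1.60, Adamts15 at 1.47, Adamts20 at 0.988, Adamts8 at 0.548, Adamts5 at 0.532, Adamts9 at 0.297 and Adamts12 at 0.0773. There, Adamts2 and Adamts15, and Adamts8 and Adamts5, were within 1 SD of each other. Each tissue therefore had its own order of these proteases, with Adamts12 or Adamts20 last in each.

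The next comparison asks what Cmpd60 did in the aged heart. Adamts9 was higher in every Cmpd60 heart than in any vehicle heart. The vehicle hearts ranged from 20.6 to 24.4 CPM with a median of 23.2, and Cmpd60 replicates 68 to 72 were at 51.7, 78.3, 35.9, 33.8 and 46.3 CPM. The treated group was spread far more widely than the vehicle group, with replicate 69 the highest. The means were 22.8 ± 1.35 (n = 6) and 49.2 ± 17.9 (n = 5), a log2 fold change of 1.09 (SE 0.17, 95% interval 0.74 to 1.45), or 2.13-fold. The choice of members named this response, so nothing is read from it beyond the values. By edgeR's quasi-likelihood test with p-values adjusted over all genes and a threshold of 0.05, 229 of 19452 genes were called in heart, 147 higher and 82 lower, which is 1.18%. DESeq2 called 746 and limma-voom 245, and leaving out 1 heart gave 36 (without Cmpd60 replicate 72) to 247. An unadjusted p below 0.05 was found for 13.5% of all genes, and 2.43% did not overlap between groups. No count of members is set against these shares, nor in aged kidney or brain, since the members were chosen by these values.

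**Figure D2:**
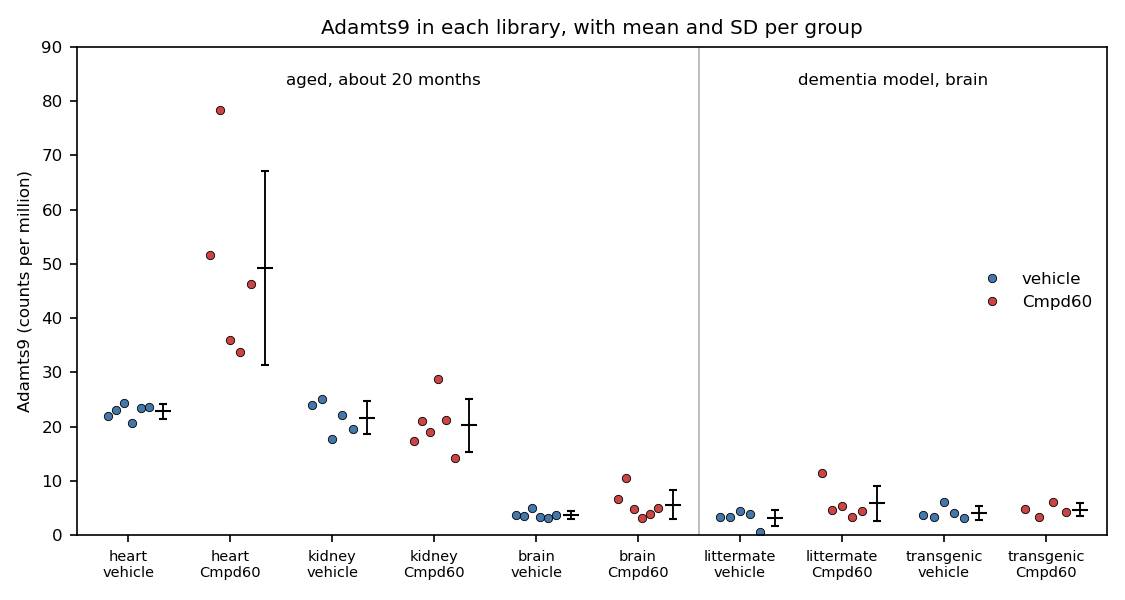
Adamts9 in each library in CPM, for vehicle (blue) and Cmpd60 (red), with mean and SD beside each group. The 5 Cmpd60 hearts sit between 33.8 and 78.3, above the 6 vehicle hearts at 20.6 to 24.4, while kidney and brain groups overlap.

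The other proteoglycan-cleaving members overlapped between heart groups. Adamts1 was at 53.9, 138, 76.5, 66.8 and 105 CPM in Cmpd60 replicates 68 to 72, against 51.5 to 78.1 with a median of 64 in vehicle. Replicates 69 and 72 lay above all vehicle hearts, and the log2 fold change of 0.45 (SE 0.18) came to 0.23 without replicate 69. Adamts4, low in heart, was at 0.940, 7.90, 3.80, 3.37 and 1.67 CPM with Cmpd60 and at 1.05 to 2.39 with a median of 1.56 in vehicle. Its log2 fold change was 1.04 (SE 0.42) and 0.51 without replicate 69, so 1 heart carried much of the difference. Adamts8 was split within both groups rather than between them. It was at 3.52, 16.1, 3.40, 13.2 and 12.4 CPM with Cmpd60, and at 3.91 to 15.2 with a median of 3.97 in vehicle, where replicate 66 was the high one. Its log2 fold change of 0.57 (SE 0.45) became 0.32 without replicate 69 and 1.08 without vehicle replicate 66.

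Adamts5 had the lowest estimate of the members in heart, at 52.0, 43.7, 53.6, 42.2 and 41.8 CPM against 47.2 to 65.8 with a median of 53.4 in vehicle. The log2 fold change was -0.23 (SE 0.09), and 3 of 5 treated hearts lay below all vehicle hearts. Adamts5 and Adamts1 are neighbouring protein-coding genes in the RefSeq annotation of GRCm38.p6, and in these hearts their mean differences had opposite signs. Adamts15 showed little difference, with means of 24.4 ± 3.53 and 24.7 ± 7.35 CPM, and Adamts20 stayed low at 0.616 ± 0.155 and 0.630 ± 0.183 CPM. Of the members with other substrates, the procollagen proteinase gene Adamts2 went from 33.9 ± 5.02 to 41.3 ± 5.37 CPM, a log2 fold change of 0.28 (SE 0.11). Adamts10 had a log2 fold change of -0.02 (SE 0.09) and Adamts12 one of 0.14 (SE 0.19).

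**Figure D3:**
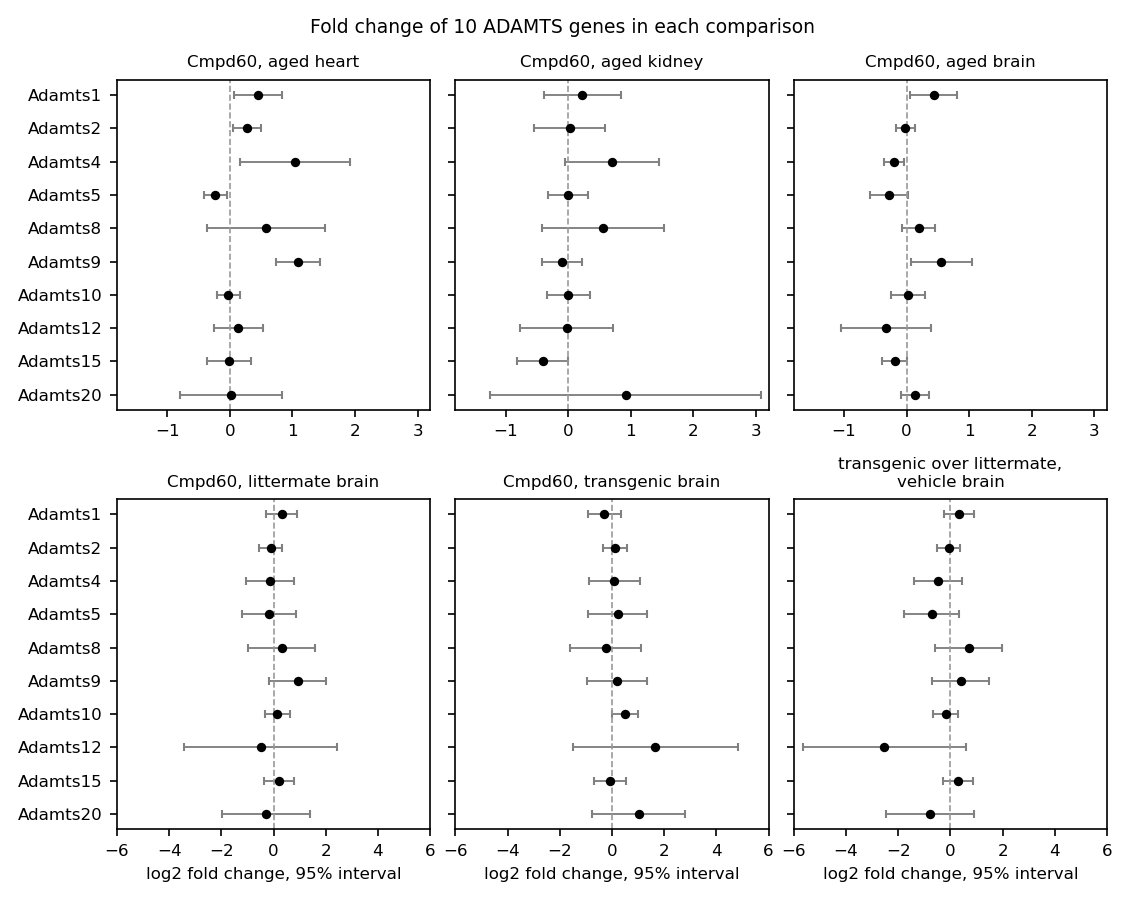
Log2 fold change of each ADAMTS gene with its 95% interval from edgeR, for Cmpd60 against vehicle in aged heart, kidney and brain and in littermate and transgenic brain, and for transgenic against littermate brain. Adamts9 in heart is at 1.09, a response that the choice of members named.

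The highest treated heart differed between members. Cmpd60 replicates 72, 71 and 70 were the highest for 3, 2 and 1 of them. Cmpd60 replicate 69 was the highest for Adamts1, Adamts4, Adamts8 and Adamts9, that is 4 of 10 members. It also had the highest endothelial sum: over 6 endothelial genes the sum was 1133, 1486, 1248, 1212 and 1190 CPM in Cmpd60 replicates 68 to 72 and 1052 to 1134 in vehicle hearts, with Kdr, a receptor for vascular growth factor, the most abundant gene and no gene at 0. All 6 endothelial genes had higher estimates, 0 were called by edgeR and 3 had an unadjusted p below 0.05, against 13.5% of all genes. Among these 3 was the endothelial cadherin gene Cdh5 at 256 ± 14.4 and 295 ± 20.6 CPM. In bulk tissue, more cells of a type and more RNA per cell cannot be told apart, and the part of endothelial content in the Adamts9 values was not tested. The endothelial sums of the groups overlapped only at Cmpd60 replicate 68, which had the second highest Adamts9 of the treated hearts at 51.7 CPM.

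The split in Adamts8 went along with atrial genes in part. The sum over 4 atrial genes was highest in the hearts of vehicle replicate 66 at 7963 CPM, Cmpd60 replicate 71 at 7243 and Cmpd60 replicate 72 at 5014, which had Adamts8 at 15.2, 13.2 and 12.4 CPM. Cmpd60 replicate 69, with Adamts8 at 16.1 CPM, had an atrial sum of 2672. Vehicle replicate 66 also had the fewest genes detected of the hearts, 17809, with a median correlation of 0.964. All 4 atrial genes had lower estimates with Cmpd60 and 0 were called, with 2 at an unadjusted p below 0.05, against 13.5% of all genes. Nppa, encoding atrial natriuretic peptide, was the most abundant, no atrial gene was at 0, and the part of atrial tissue in the Adamts8 values was not tested.

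In the aged kidney the question is the same, and the members gave a different picture. Adamts9 was at 24.0, 25.0, 17.6, 22.1 and 19.5 CPM in vehicle replicates 45 to 49 and at 14.3 to 28.8 with a median of 19.9 with Cmpd60. The groups overlapped, with a log2 fold change of -0.10 (SE 0.15, 95% interval -0.42 to 0.23). The difference between the heart and kidney responses was not itself tested. In kidney, 62 of 20698 genes were called by edgeR, 39 higher and 23 lower, which is 0.300%. DESeq2 called 429 and limma-voom 70, and leaving out 1 kidney gave 20 (without vehicle replicate 46) to 131 (without Cmpd60 replicate 52). At an unadjusted p below 0.05 there were 11.3% of all genes, and 2.31% did not overlap between groups.

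The kidney groups of Adamts4, Adamts8 and Adamts15 overlapped. Adamts4 was at 8.45, 2.98, 2.92, 5.63 and 1.58 CPM in vehicle kidneys and at 4.79 to 11.4 with a median of 6.42 with Cmpd60, a log2 fold change of 0.70 (SE 0.35). Adamts15 was at 34.7, 28.5, 20.1, 30.3 and 20.6 CPM in vehicle and 12.6 to 28.9 with a median of 19.7 with Cmpd60, a log2 fold change of -0.41 (SE 0.19). Adamts8, next to Adamts15 in the genome, was at 0.637 CPM in vehicle and 0.934 with Cmpd60, a log2 fold change of 0.56 (SE 0.46). The members with other substrates differed little, as did Adamts5: Adamts2, Adamts5, Adamts10 and Adamts12 had log2 fold changes of 0.02 (SE 0.27), 0.00 (SE 0.15), 0.00 (SE 0.16) and -0.02 (SE 0.35). Adamts20 held too few counts for a fold change, at 0.0783 ± 0.0520 and 0.152 ± 0.162 CPM.

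A pair of treated kidneys set the spread of several members. Cmpd60 replicates 54 and 55 had Adamts1 at 163 and 191 CPM, where the other 4 treated kidneys were at 66.2 to 77.7, and Adamts2 at 22.0 and 21.1 CPM, where the others were at 7.42 to 9.98. Without replicate 55 the log2 fold change of Adamts1 went from 0.22 (SE 0.29) to -0.01. These kidneys also had fibroblast sums over 7 genes of 783 and 657 CPM, against 349 to 397 in the other treated kidneys and 329 to 542 in vehicle. Their macrophage sums over 6 genes were 360 and 296 CPM, against 147 to 163 in the other treated kidneys and at most 227 in vehicle. Replicate 55 had a kidney epithelial sum of 6982 CPM, below the 11569 or more of the others. It also had the fewest genes detected of the kidneys, 18512, and the lowest median correlation, 0.952. Replicate 54 had 22724 genes detected and a median correlation of 0.979. Of the 7 fibroblast genes 4 had higher estimates and of the 6 macrophage genes 6. In each list 0 were called and 0 had an unadjusted p below 0.05, against 11.3% of all genes. Col1a2 and Csf1r were the most abundant, no gene of these lists was at 0 in a kidney group, and their part in the Adamts1 and Adamts2 values was not tested.

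In the aged brain Adamts9 and Adamts1 were the members with the largest positive log2 fold changes. Adamts9 was at 3.08 to 5.04 CPM with a median of 3.52 in vehicle and at 3.06 to 10.6 with a median of 4.89 with Cmpd60, a log2 fold change of 0.56 (SE 0.23, 95% interval 0.08 to 1.04). Adamts1 was at 12.5 to 16.6 CPM with a median of 14.8 in vehicle and at 14.8 to 37.8 with a median of 17.4 with Cmpd60, a log2 fold change of 0.43 (SE 0.18). Cmpd60 replicate 34 was the highest for both, and without it their log2 fold changes were 0.28 and 0.16. The same library had the highest sum over 6 endothelial genes, 117 CPM, where the other treated brains were at 80.5 to 94.2 and the vehicle brains at 75.7 to 80.8. All 6 endothelial genes had higher estimates, 0 were called and 2 had an unadjusted p below 0.05, against 13.8% of all genes. No endothelial gene was at 0, Pecam1 was the most abundant, and their part in these values was not tested.

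Adamts4, the leading brain member, was at 40.5 to 51.0 CPM with a median of 45.6 in vehicle and at 36.5 to 49.4 with a median of 38.6 with Cmpd60. The log2 fold change was -0.20 (SE 0.08), and 4 of 6 treated brains lay below all vehicle brains. The treated brains with the most Adamts4, replicates 35 and 36 at 49.4 and 44.6 CPM, had the highest sums over 5 oligodendrocyte genes, 6723 and 6122 CPM, where the other treated brains were at 4568 to 5394 and the vehicle brains at 5261 to 6310. Of these 5 genes 2 had higher and 3 lower estimates, with 0 called and 1 at an unadjusted p below 0.05, against 13.8% of all genes. Mbp, encoding myelin basic protein, was the most abundant, none was at 0, and their part in the Adamts4 values was not tested. Adamts5 at -0.28 (SE 0.15) and Adamts15 at -0.19 (SE 0.09) had lower estimates, while Adamts8 at 0.19 (SE 0.12) and Adamts20 at 0.14 (SE 0.11) had higher ones. Adamts2 at -0.02 (SE 0.07), Adamts10 at 0.03 (SE 0.13) and Adamts12 at -0.34 (SE 0.34) on the log2 scale completed the set.

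In aged brain 5 of 24438 genes were called by edgeR, 3 higher and 2 lower, which is 0.0205%. This count depended on the tool and on single brains: DESeq2 called 429, limma-voom 2 and edgeR without the filter 102, and leaving out 1 brain gave 1 to 372, the latter without vehicle replicate 29. An unadjusted p below 0.05 was found for 13.8% of all genes, and 1.07% did not overlap between groups.

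The rule that chose the members did not use the dementia-model brains, and here the members were tested over all 23194 genes. In littermates the question is whether Cmpd60 acts on these genes in mice without the transgene. By edgeR 0 genes (0%) and 0 of 10 members were called, with 0 members and 3.67% of all genes at an unadjusted p below 0.05. DESeq2 called 4 genes and 0 members with 1 member at an unadjusted p below 0.05, and limma-voom called 0 genes and 0 members with 0 members. No member was free of overlap between groups, a count of 0, where 0.509% of all genes were. The gene nearest to a difference was Adamts9, at 3.38, 3.26, 4.37, 3.80 and 0.603 CPM in vehicle-149, vehicle-150, vehicle-151, vehicle-154 and vehicle-155 and at 11.5, 4.56, 5.32, 3.39 and 4.38 CPM in Cmpd60 replicates 152, 153, 156, 157 and 158. The highest and the lowest value both came from libraries that stood apart. The log2 fold change was 0.92 (SE 0.54, p 0.0993, adjusted p 0.999 by edgeR), with 4 of 5 treated brains above all vehicle brains. Without the libraries that stood apart it was 0.25 (SE 0.27, adjusted p 0.999), with means of 3.70 ± 0.500 (n = 4) and 4.41 ± 0.795 (n = 4) CPM. In that setting 0 members against 4.52% of 23021 genes had an unadjusted p below 0.05, and 0 members against 2.64% of genes did not overlap between groups. The endothelial sum was highest in replicate 152, at 117 CPM, and lowest in vehicle-155, at 70.1 CPM, the libraries with the most and the least Adamts9, and its part was not tested.

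In the transgenic brains the question is whether Cmpd60 acts on these genes where mutant APP is made. By edgeR 0 genes (0%) and 0 of 10 members were called, with 0 members and 9.46% of all genes at an unadjusted p below 0.05. DESeq2 called 22 genes and 0 members with 0 members at an unadjusted p below 0.05, and limma-voom called 0 genes and 0 members with 2 members. With all used libraries Adamts20 was the one member whose groups did not overlap, where 2.31% of all genes did not. It was at 0, 7.78, 8.67, 5.00 and 5.39 CPM in vehicle-140, vehicle-142, vehicle-144, vehicle-145 and vehicle-146 and at 12.4, 10.6, 11.1 and 9.58 CPM in Cmpd60 replicates 141, 143, 147 and 148. The log2 fold change was 1.03 (SE 0.87, p 0.246, adjusted p 0.847), and all 4 treated brains lay above all 5 vehicle brains. Without the libraries that stood apart it was 0.54 (SE 0.23, adjusted p 0.422), with 3 of 3 treated brains above. In that setting 3 members did not overlap, where 15.3% of all genes did not: Adamts12 was also above in 3 of 3 (1.33, SE 0.86, adjusted p 0.591), and Adamts1 was below in 3 of 3 (-0.30, SE 0.16, adjusted p 0.517). The smallest p among members was that of Adamts10, with means of 23.8 ± 8.48 and 33.6 ± 11.7 CPM and a log2 fold change of 0.50 (SE 0.25, p 0.0552, adjusted p 0.542). Without the libraries that stood apart it was 0.98 (SE 0.24, adjusted p 0.188), with 2 of 3 treated brains above all vehicle brains. Adamts10 and Adamts20 were then the 2 members at an unadjusted p below 0.05, where 10.8% of all genes were. Adamts9 had a log2 fold change of 0.20 (SE 0.57), and 0.02 (SE 0.31, adjusted p 0.995) without those libraries. None of these members passed the test in either setting.

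Between vehicle brains, transgenic against littermate, the question is what the APP transgene went along with. Here 2 of 23194 genes were called by edgeR, 2 higher and 0 lower, which is 0.00862%, and 0 of 10 members. At an unadjusted p below 0.05 there were 0 members and 8.67% of all genes, DESeq2 called 20 genes and limma-voom 3, and each called 0 members, with 0 and 1 at an unadjusted p below 0.05. Between groups 0 members and 0.638% of all genes did not overlap. Adamts12 had the smallest p, with a log2 fold change of -2.54 (SE 1.52, p 0.106, adjusted p 0.687). It held 0 counts in 5 of the 53 libraries used, and these were the 5 that stood apart. Without them the log2 fold change was -2.13 (SE 0.84, adjusted p 0.439), from means of 0.910 ± 0.418 (n = 4) and 0.206 ± 0.143 (n = 3) CPM, with 3 of 3 transgenic brains below all littermates. In that setting 1 member, Adamts12, against 6.16% of genes did not overlap, and 2 members, Adamts10 (-0.48, SE 0.22, adjusted p 0.478) and Adamts12, against 10.1% of genes had an unadjusted p below 0.05, with none called. The term that asks whether the Cmpd60 effect differed by genotype gave 0 genes (0%) and 0 members called by edgeR, with 0 members and 5.09% of genes at an unadjusted p below 0.05. DESeq2 called 4 genes and limma-voom 0, each with 0 members, and 0 and 1 members had an unadjusted p below 0.05. For Adamts9 the difference between the Cmpd60 effects was -0.72 (SE 0.78, p 0.365, adjusted p 0.9999), and -0.23 (SE 0.41) without the libraries that stood apart. Without them 1 member, Adamts10 (0.75, SE 0.31, adjusted p 0.906), against 5.37% of genes had an unadjusted p below 0.05.

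Median log2 fold changes of the 10 members were 0.01 in littermates, 0.16 in transgenic brains, -0.12 between genotypes and 0.23 for the difference of effects, against 0.02, 0.03, -0.01 and 0.01 over all genes tested. Without the libraries that stood apart the member medians were 0.04, 0.10, 0.05 and -0.03, so the last 2 turned sign, against 0.02, 0.03, -0.02 and 0.01 over all genes. Adamts4 showed a spread of its own in these brains. The libraries were split at the widest gap between neighbouring Adamts4 values, so the empty gap is there by construction. On the lower side 8 libraries lay between 6.84 and 14.1 CPM, and on the upper side 11 lay between 26.7 and 36.3. The lower libraries were 1 littermate vehicle, 2 littermate Cmpd60, 3 transgenic vehicle and 2 transgenic Cmpd60, so both sides occurred in every group. These transgenic counts include libraries that stood apart, among them the lowest, vehicle-146. Without the libraries that stood apart, each group still spanned the gap. Littermates then ran from 10.2 to 31.9 CPM with vehicle and from 7.58 to 31.8 with Cmpd60. Transgenic brains ran from 12.0 to 36.3 CPM with vehicle and from 8.07 to 28.3 with Cmpd60. The sum over 5 oligodendrocyte genes ran from 5495 to 6913 CPM in the lower and from 5349 to 7490 in the upper libraries. Its part in the Adamts4 values was not tested. In aged brains no library lay below 36.5 CPM.

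The other 9 ADAMTS genes give the family background. Being those left after the choice by values in aged tissue, they are described there with no test. With Cmpd60, 2 had higher and 4 lower estimates in heart, 0 and 6 in kidney, and 1 and 8 in aged brain. Over all genes 49.6%, 50.0% and 51.8% had higher estimates there. Some of these signs came from estimates near 0 or from few counts. Adamts7 in kidney had a log2 fold change of -0.01 (SE 0.22), and in aged brain Adamts6 and Adamts7 had -0.02 (SE 0.13 and 0.32). Adamts17 in vehicle kidney was at 0.143 CPM. Adamts3, a procollagen proteinase gene like Adamts2, was at 4.85 ± 1.30 CPM in vehicle heart and 7.32 ± 2.21 with Cmpd60, and Adamts19 was at 2.84 ± 0.814 and 2.01 ± 0.709 CPM in aged brain. In each of the comparisons of the dementia set 9 were tested, and edgeR called 0 of them, with 0 at an unadjusted p below 0.05. Adamts7, which like Adamts12 cleaves cartilage oligomeric matrix protein, was at 25.7 ± 5.55 CPM in vehicle heart, 5.81 ± 1.62 in kidney and 0.303 ± 0.0929 in brain. Adamts13, encoding the plasma protease that cuts von Willebrand factor and made mainly in liver, had 0 counts in all 6 vehicle hearts.

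Genes around these proteases were read from lists of substrates (15 genes), hyaluronan enzymes and link proteins (10), inhibitors, activators and clearance (12), ADAMTS-like proteins that lack the protease domain (7) and matrix metalloproteinases (19). By edgeR 0 genes of these lists were called in any of the comparisons. In heart 2 of 14, 2 of 9, 5 of 12, 1 of 7 and 3 of 17 tested genes had an unadjusted p below 0.05, against 13.5% of all genes. The smallest p-values among them were those of Timp1, an inhibitor of metalloproteinases, at 4.10 ± 0.957 and 7.47 ± 2.55 CPM (log2 fold change 0.84, adjusted p 0.0658, 4 of 5 above), and of Mmp2, the gelatinase of fibroblasts, at 73.4 ± 9.13 and 95.1 ± 13.1 CPM (0.36, adjusted p 0.0726, 3 of 5 above). Vwf, encoding von Willebrand factor of endothelium, was at 215 ± 30.0 and 297 ± 74.7 CPM (0.45, adjusted p 0.154). The substrate Vcan, encoding versican, was at 34.5 ± 7.76 and 44.3 ± 11.8 CPM (0.34, adjusted p 0.384). None of these changes passed the threshold.

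In kidney 1 of 12, 2 of 6, 0 of 12, 2 of 7 and 2 of 18 genes of the same lists had an unadjusted p below 0.05, against 11.3% of all genes. Mmp13, a collagenase gene, was at 2.28 ± 0.217 and 0.916 ± 0.552 CPM (log2 fold change -1.32, adjusted p 0.216), with 6 of 6 treated kidneys below all vehicle kidneys. In aged brain the counts were 4 of 15, 1 of 10, 0 of 12, 3 of 7 and 4 of 15, against 13.8%. Adamtsl5, which encodes an ADAMTS-like protein, was at 5.57 ± 0.522 and 7.65 ± 0.896 CPM (0.43, adjusted p 0.0937), and Vwf at 31.8 ± 1.84 and 57.7 ± 21.6 CPM (0.83, adjusted p 0.0868), each above all vehicle brains in 6 of 6 treated brains. In littermates 1 substrate gene and 1 gene of the inhibitor list had an unadjusted p below 0.05, in transgenic brains 3 metalloproteinase genes, between genotypes 1 hyaluronan gene and 2 metalloproteinase genes, and for the difference of effects 2 metalloproteinase genes, with 0 called. All genes stood at 3.67%, 9.46%, 8.67% and 5.09% there. The compound's targets Hdac1 and Hdac2 were not called either: in heart their log2 fold changes were 0.05 (SE 0.10) and -0.08 (SE 0.07), in kidney 0.20 (SE 0.08, adjusted p 0.390) and 0.03 (SE 0.10), and in aged brain 0.02 (SE 0.08) and 0.04 (SE 0.05).

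Cell type markers give the tissue context, and among all their lists 2 genes were called by edgeR in any comparison. Scx, the transcription factor of tendon and valve cells, rose in heart from 4.59 ± 1.18 to 8.35 ± 1.53 CPM (log2 fold change 0.85, SE 0.19, adjusted p 0.0426), with 4 of 5 treated hearts above all vehicle hearts. The call of Scx held in 2 of 11 fits that each left out 1 heart. Of the 7 valve and tendon-like genes 5 had higher estimates, and their sum was 36.8 to 74.3 CPM in vehicle and 52.9 to 84.9 with Cmpd60. Ttr, the thyroxine carrier listed as a choroid plexus marker, fell in kidney from 46.2 ± 10.9 to 17.1 ± 5.38 CPM (log2 fold change -1.43, SE 0.21, adjusted p 0.00679), below all vehicle kidneys in 6 of 6. In heart the numbers at an unadjusted p below 0.05 were 0 of 6 cardiomyocyte, 2 of 7 fibroblast, 0 of 6 smooth muscle and pericyte, 1 of 5 epicardial, 1 of 5 adipocyte, 0 of 4 skeletal muscle, 3 of 6 macrophage, 0 of 3 blood and 0 of 3 cartilage genes, against 13.5% of all genes. All 6 macrophage genes had higher estimates in heart, with sums of 251 to 290 CPM with Cmpd60 and 181 to 306 in vehicle. In kidney they were 1 of 6 kidney epithelial, 0 of 4 podocyte and 0 of 6 endothelial genes, against 11.3%. In aged brain they were 4 of 5 neuronal, 1 of 4 astrocyte, 2 of 4 oligodendrocyte precursor, 0 of 4 microglial, 0 of 5 choroid plexus and 2 of 6 meningeal and vascular fibroblast genes, against 13.8%.

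In the dementia set 0 genes of the brain cell lists were called. At an unadjusted p below 0.05 in littermates were 2 of 5 neuronal, 1 of 4 astrocyte and 1 of 4 oligodendrocyte precursor genes, against 3.67% of all genes. In transgenic brains they were 1 of 5 neuronal, 1 of 4 astrocyte, 2 of 5 oligodendrocyte, 1 of 4 microglial and 1 of 5 choroid plexus genes, against 9.46%. All 5 oligodendrocyte genes had lower estimates with Cmpd60 there, with sums of 6248 to 7043 CPM in vehicle and 5349 to 6917 with Cmpd60. All 5 choroid plexus genes had lower estimates too, with sums of 391 to 1544 and 360 to 566 CPM, and Ttr, the most abundant, had a log2 fold change of -1.13 (SE 0.28, adjusted p 0.444), or -0.89 (SE 0.26, adjusted p 0.270) without the libraries that stood apart. Between genotypes 1 of 5 neuronal genes stood at an unadjusted p below 0.05, against 8.67%, and for the difference of effects 1 of 5 oligodendrocyte, 1 of 4 microglial and 2 of 5 choroid plexus genes, against 5.09%. The other brain cell lists, with those of meningeal fibroblasts and endothelium, had 0 in each case.

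The genes most like Adamts9 in pattern were sought among 13778 genes by Pearson correlation of log2 CPM over the 34 aged libraries. They were Col4a2 (r 0.96), Car14 (0.96), Col4a1 (0.95), Flt4 (0.95) and Mmrn2 (0.95). All 5 had their highest mean in heart and their lowest in brain, and the part of tissue in this likeness was not tested. Mean CPM in heart, kidney and brain was 476, 288 and 46.3 for Col4a2 and 84.1, 42.4 and 6.27 for Mmrn2. Over the 11 hearts, after group means were subtracted, r was 0.78, 0.54, 0.74, 0.30 and 0.48 in the same order. Libraries share tissue, treatment and depth, so these are descriptions. Col4a1 and Col4a2 encode the basement membrane collagen chains, Flt4 a receptor of lymphatic endothelium, Mmrn2 an endothelial matrix protein and Car14 a membrane-bound carbonic anhydrase.

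These 5 genes were picked by their likeness to Adamts9 over libraries that include the treated hearts, so their Cmpd60 differences in aged mice are given with no test. In heart Car14 was at 114 ± 9.87 and 205 ± 44.1 CPM (log2 fold change 0.84, SE 0.11) and Mmrn2 at 75.6 ± 5.45 and 94.2 ± 6.62 CPM (0.30, SE 0.07), each with 5 of 5 treated hearts above all vehicle hearts. Col4a2 was at 415 ± 42.8 and 550 ± 150 CPM (0.39, SE 0.13), and Col4a1 and Flt4 had log2 fold changes of 0.31 and 0.14. In kidney the log2 fold changes of the 5 genes ran from -0.07 to 0.20. In aged brain they ran from 0.22 to 0.49.

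Genes that overlap the members could share reads with them. Exons of Adamts9 share 1381 bases with A730049H05Rik and 424 bases with Gm15737, both on the opposite strand in the GENCODE annotation. In heart A730049H05Rik was at 0.108 CPM in vehicle and 0.257 with Cmpd60 (log2 fold change 1.18, SE 0.73, adjusted p 0.523), and Gm15737 at 1.97 and 1.41 CPM (-0.50, SE 0.23, adjusted p 0.359). Both were far below Adamts9 in that tissue. In kidney A730049H05Rik was nearer to it, at 4.79 CPM in vehicle and 4.04 with Cmpd60, where Adamts9 was at 21.6 and 20.3 CPM. The library kit keeps the strand of each read, and the methods of the study say that read direction was used in the counting. The part of shared reads in the Adamts9 values was not tested.

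The promoters of Adamts1 and Adamts9 are shown because both genes were highest in heart replicate 69 and in brain replicate 34. In kidney they went opposite ways, as replicate 55 had the highest Adamts1 (191 CPM) and the lowest Adamts9 (14.3 CPM) of the treated kidneys. RefSeq sequences of 300 bases, from 250 before to 50 after the gene start in GRCm38.p6, were found for 5 members (Adamts1, Adamts2, Adamts9, Adamts12 and Adamts20). The Adamts1 promoter is chr16:85803064-85803363 and the Adamts9 promoter is chr6:92943485-92943784, both on the minus strand and written 5′ to 3′ in the direction of the gene. Capitals mark the GC box GGGCGG or its reverse CCGCCC and the TATA box TATAAA or its reverse TTTATA, and no marked bases overlap.
Adamts1: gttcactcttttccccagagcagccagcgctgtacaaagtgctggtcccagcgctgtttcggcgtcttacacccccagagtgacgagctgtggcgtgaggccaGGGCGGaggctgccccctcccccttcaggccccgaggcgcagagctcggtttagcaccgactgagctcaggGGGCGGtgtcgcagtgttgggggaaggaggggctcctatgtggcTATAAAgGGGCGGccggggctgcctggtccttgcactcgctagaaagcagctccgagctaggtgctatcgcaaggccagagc
Adamts9: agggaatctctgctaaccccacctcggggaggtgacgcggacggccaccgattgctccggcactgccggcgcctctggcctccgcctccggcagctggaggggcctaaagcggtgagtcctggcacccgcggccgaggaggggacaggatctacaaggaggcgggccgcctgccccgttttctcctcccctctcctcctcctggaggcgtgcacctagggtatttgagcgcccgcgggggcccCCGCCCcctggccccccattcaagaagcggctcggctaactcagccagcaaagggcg
Adamts1 had 3 GC boxes forward, 1 TATA box forward and 18 CG dinucleotides in 64.7% G and C. Adamts9 had 1 GC box, in reverse, no TATA box, and 25 CG dinucleotides in 70% G and C. The median over all 32851 promoters was 7 CG dinucleotides. A GC box on either strand was in 35.7% of all promoters and a TATA box in 13.6%. The E-box CACGTG, in 7.15% of promoters, was in none of the 5. Adamts2 and Adamts20 each had 41 CG dinucleotides in 77.3% G and C, with GC boxes on both strands, and Adamts12 had 7 in 62% with none. A match describes these letters in this window and no more.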

How the data were processed

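RNA was sequenced from 54 mouse libraries, 34 from aged heart, kidney and brain and 20 from dementia-model brain. The deposited files hold raw read counts per Ensembl gene, which the authors made with FastQC, Trimmomatic 0.32, HISAT2 2.1.0 and HTSeq 0.11.0 according to the submitters' processing notes. The methods of the study say that read direction was used in the counting, and the genome build of the alignment is not given in the sources used here. Each file ends with 5 summary lines, which were left out and held 16.6% to 22.1% of the aged reads and 15.4% to 19.5% of the dementia-model reads. Symbols matched 32651 of 54232 gene IDs, exon lengths came from GENCODE vM1 on NCBIM37, and promoters from RefSeq on GRCm38.p6.

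Counts were fitted in R 4.3.3 with edgeR 4.0.16 (TMM and its quasi-likelihood F test), on genes whose count was above 2 in 3 or more libraries, by tissue in aged mice and in one model for the dementia set. P-values were adjusted over all genes by Benjamini-Hochberg, with a threshold of 0.05. The transgenic library vehicle-139 was left out of the fits. CPM came from 1 TMM normalization of the 34 aged libraries and another of the dementia set. All 10 members passed the filter in every comparison. The limits given as 3 counts reflect counting error alone, because copies made by PCR are not independent molecules. Alternatives were DESeq2 1.42.0, limma-voom (limma 3.58.1), edgeR run on DESeq2 size factors, edgeR without the filter or with a minimum of 10 counts, thinning to the smallest library, vehicle-139 put back as vehicle or as Cmpd60, fits of only the 2 groups compared, leaving out each library, and leaving out the libraries that stood apart. The code was tested on simulated data.

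Named genes were the 10 members, the other 9 ADAMTS genes, Hdac1 and Hdac2, the 5 genes most correlated with Adamts9 among those with a mean of at least 1 CPM in heart, and from each list the called genes, at most 4 in each direction, or the up to 3 genes with the smallest p. Adamts7 and Adamts13 come under the other ADAMTS genes, and overlapping genes were added because they share sequence. The members and lists were chosen with earlier results of these data known.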

Additional observations from a re-analysis of the deposited data

Results flagged for a closer look

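In each group of 4 to 6 libraries the highest or lowest value of each member was compared with its nearest neighbour. A library was singled out when that gap took up more of the group's range than Dixon's critical value at 95% allows. Chance does this in about 1 in 20 groups, so 5 of the 100 groups examined would be singled out by chance, and 13 were.

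In the aged mice, Adamts8 was at 15.2 CPM in vehicle heart replicate 66, far above the rest of that group. Adamts4 was at 11.4 CPM in Cmpd60 kidney replicate 51, the highest treated kidney. In vehicle brains Adamts2 was at 16.8 CPM in replicate 27, and replicate 29 had both the highest Adamts9, 5.04 CPM, and the highest Adamts20, 12.5 CPM. Adamts1 was at 37.8 CPM in Cmpd60 brain replicate 34.

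In the dementia set, 5 of these values came from libraries that stood apart from the rest. Littermate Cmpd60 replicate 152 had Adamts9 at 11.5 CPM and Adamts20 at 0. Adamts5 was at 17.9 CPM in littermate vehicle-155, Adamts15 at 18.6 CPM in transgenic vehicle-140, and Adamts12 at 0 in transgenic Cmpd60 replicate 141. The others were Adamts4 at 10.2 CPM in littermate vehicle-151 and Adamts2 at 16.6 CPM in transgenic Cmpd60 replicate 143, each the lowest of its group.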

How the results depend on the processing

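The log2 fold change of Adamts9 in heart, which the choice of members used, ran from 1.02 to 1.09 over 6 other settings and from 0.87 to 1.20 over 11 fits that each left out 1 heart. Over 1629 alternative member fold changes 75 changed sign. With CPM on total counts 24 of 100 member levels moved by more than 1 SD, and 8 of 10 members kept their tissue order, all but Adamts9 and Adamts12.

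The counts of genes called moved more, and the cause was not tested. DESeq2 called 746 genes in heart (edgeR 229), 429 in kidney (62), 429 in aged brain (5), 4 in littermates (0), 22 in transgenic brains (0), 20 between genotypes (2) and 4 for the difference of effects (0). Without a filter the counts were 94 in kidney, 102 in aged brain, 2 in littermates, 8 in transgenic brains and 2 for the difference of effects. Limma-voom called 2 genes in aged brain, and a fit of only the 2 groups compared called 1 in transgenic brains. Without the libraries that stood apart, 1 gene was called in littermates, 3 in transgenic brains and 7 between genotypes. That alternative and its limit of 0.95 on the median correlation were chosen after seeing the data. Limma-voom moved the median log2 fold change of all genes in transgenic brains to 0.15, from 0.03.

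Leaving out 1 library at a time gave 36 to 247 genes in heart, 20 to 131 in kidney, 1 to 372 in aged brain, 0 to 2 in littermates, 0 to 1 in transgenic brains, 1 to 4 between genotypes and 0 to 1 for the difference of effects. In the dementia set members called stayed at 0. In heart the count moved over 1.5 times without Cmpd60 replicates 69 (73) and 72 (36) and vehicle replicates 63 (80), 64 (80), 65 (125) and 67 (81). In kidney it moved without Cmpd60 replicates 50 (33), 51 (31) and 52 (131) and vehicle replicates 45 (32), 46 (20), 47 (20) and 49 (28). In aged brain it moved without any library: Cmpd60 33 (1), 34 (1), 35 (2), 36 (36), 37 (3) and 38 (8), vehicle 27 (1), 28 (1), 29 (372), 30 (2), 31 (1) and 32 (1). In the dementia set the littermate count moved without littermate Cmpd60 152 (2) and 156 (1), and the transgenic count without littermate Cmpd60 153 (1). The genotype count moved without transgenic vehicle-145 (1) and littermate vehicle-149 (1), vehicle-150 (1), vehicle-151 (4) and vehicle-155 (1), and the difference of effects without littermate Cmpd60 152 (1) and 156 (1).

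No paired analysis was possible because library numbers are unique to each sample and the labels do not say which tissues share a mouse. Depth limits Adamts20 in kidney, where counts were at or near 0.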

Other observations

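The transgenic library vehicle-139, which the sample labels give as vehicle and a heading of the study's supplementary table as treated, was in no comparison. Its levels were 16.5 CPM for Adamts1, 19.7 for Adamts2, 32.7 for Adamts4, 8.10 for Adamts5, 4.11 for Adamts8, 3.62 for Adamts9, 30.7 for Adamts10, 0.481 for Adamts12, 10.4 for Adamts15 and 7.62 for Adamts20. Its median correlation with the other dementia-model libraries was 0.946, with 18122 genes detected.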
